A study of Arabidopsis thaliana with 6 samples.

Results

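Aliphatic glucosinolates are sulfur-containing defence compounds that Arabidopsis makes from methionine. The genes described here were chosen by pathway role, as 8 named probe sets of the Affymetrix ATH1 array, by a rule that sets no condition on their values but was written with earlier results of these data known, and 8 of the 8 were present among the 15177 probe sets tested. They read 9 genes, since 1 probe set is shared by CYP79F1 and CYP79F2. The 6 enzyme probe sets are BCAT4 (257021_at, AT3G19710), MAM1 (249866_at, AT5G23010), CYP79F1 and CYP79F2 (262717_s_at, AT1G16410 and AT1G16400), CYP83A1 (254687_at, AT4G13770), SUR1 (263714_at, AT2G20610) and UGT74C1 (263477_at, AT2G31790). The 2 regulator probe sets are MYB28 (247549_at, AT5G61420) and MYB29 (250598_at, AT5G07690). The probe annotation used here names 2 of the 8, BCAT4 and AT2G31790, and the other names come from the definition of the set.

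In the saliva group, leaves of 3-week-old wild-type Col-0 plants were infiltrated with artificial diet of sucrose and amino acids on which green peach aphids (Myzus persicae, a tobacco-adapted red lineage) had fed for 24 h. In the control group, leaves of plants in the same pots received diet from cups with 0 aphids. Both groups therefore share the infiltration and the starting diet. Any other change that feeding made in the diet cannot be told apart from saliva. Leaves were harvested 24 h later, and a sample is a pool of 18 leaves from 6 plants, with 3 leaves per plant. The experiment was done 3 times and gave 3 saliva arrays and 3 control arrays, paired by repeat.

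The pathway begins with methionine, which BCAT4 deaminates and MAM1 condenses with acetyl-CoA in the chloroplast, so that the side chain is lengthened. CYP79F1, CYP79F2, CYP83A1, SUR1 and a glucosyltransferase such as UGT74C1 then build the glucosinolate core, and MYB28 and MYB29 are transcription factors that switch these genes on. Myrosinase releases toxic products from glucosinolates when cells are broken, while aphids feed from the phloem with little breakage, and green peach aphids are known to pass much of the aliphatic glucosinolate they take up intact.

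These genes were sorted into 2 patterns after their values were seen, and a difference between the patterns was not tested. MYB28, MYB29 and UGT74C1 had lower intensities on each of the 3 saliva arrays than on any control array, at 72.8% to 78.4% of control on average. The other 5 enzyme probe sets had means between 96.9% and 104.3% of control, with saliva and control arrays overlapping. No difference among them passed the threshold. With limma, the repeat as a block and adjustment over all 15177 probe sets, 0 of the 8 were called at an adjusted p under 0.05, where 0% of all probe sets were called, and the lowest adjusted p over the whole table was 0.338 (0.078 in the limma fit without the block). At an unadjusted p under 0.05 in the same limma fit there were 3 of the 8, those lower 3, beside 11% of all probe sets in either direction, 5.44% lower and 5.59% higher after saliva. That count of 3 was 1 without repeat 1 (MYB29), 2 without repeat 2 (MYB28 and MYB29) and 3 without repeat 3. The share of all probe sets under 0.05 in those fits is not given here, so these counts cannot be set against it.

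Values are the authors' normalized intensities on a linear scale, and differences are log2 saliva minus control within a repeat. The median intensity of an array lay between 139.2 and 146.8 and the lowest between 3.23 and 3.28, and the lowest reading of the 8 probe sets was 162. On the first principal component, which held 41% of the variance, the saliva 3 array stood apart at 33.3, with the other arrays between -17.5 and 6.29. The results for MYB28, MYB29 and UGT74C1 are therefore also given without repeat 3. Of 7 marker genes of leaf mesophyll 4 had a named probe set (RCA, PSAN, PSBW and LHCB4.1), with intensities from 12431 to 29573 and log2 differences between -0.15 and 0.000875. PSAN, PSBW and LHCB4.1 were lower in all 3 pairs, where 15.6% of all probe sets were, and the pairs of RCA went both ways. For PSAN (-0.15, limma adjusted p = 0.543) and PSBW (-0.091, limma adjusted p = 0.689) all saliva arrays lay below all control arrays, where 8.58% of all probe sets did. Of 3 guard cell markers 1 had a named probe set, FAMA, with a difference of 0.19 ± 0.39 (SD, n = 3 pairs). The markers listed for phloem, root, flower and seed were not analysed here. The part of cell composition in the results was not tested, and in bulk leaf samples fewer cells of a type and less RNA per cell cannot be told apart.

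**Figure D1:**
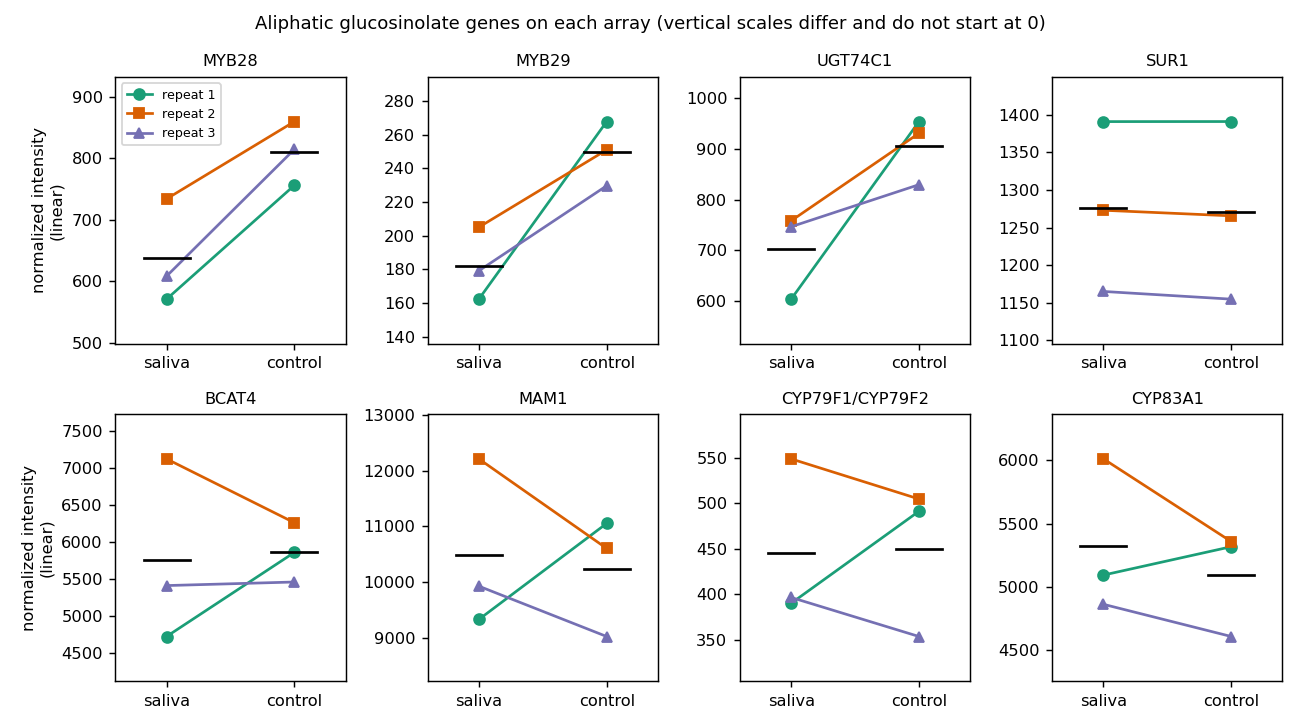
Normalized intensity (linear, arbitrary units) of each probe set on the saliva arrays, left, and the control arrays, right. Coloured points joined by a line are the arrays of 1 repeat, and black bars are group means. MYB28, MYB29 and UGT74C1 slope the same way in all 3 repeats, whereas the other panels hold repeats that slope both ways or lie flat.

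Of the regulators, MYB28 is the main activator of aliphatic glucosinolate genes and is needed for the long-chain forms. Its intensities were 571, 734 and 608 on saliva arrays 1, 2 and 3, against 756, 859.7 and 815 on control arrays 1, 2 and 3. The highest saliva array lay just under the lowest control array, so the groups did not overlap. The log2 differences of pairs 1, 2 and 3 were -0.41, -0.23 and -0.42, with a mean of -0.35 ± 0.11 (SD, n = 3 pairs). That mean corresponds to 78.4% of control, with a 95% interval from 67.0% to 91.6% that is not corrected for the number of probe sets. MYB28 did not pass the test (limma adjusted p = 0.358 and unadjusted p = 0.0114). The difference was -0.32 without repeat 3 and also -0.32 without repeat 1, whose raw file names in the labels set it apart from repeats 2 and 3.

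MYB29 encodes a related factor that acts mainly on short-chain glucosinolates and responds to jasmonate. Its intensities were 162, 205 and 179 on saliva arrays 1, 2 and 3, against 268, 251 and 229.7 on the control arrays of the same repeats. The groups did not overlap, and pair 1 was the widest of the 3. Pair differences were -0.72, -0.29 and -0.36, with a mean of -0.46 ± 0.23 (SD, n = 3 pairs), or 72.8% of control (95% interval 58.6% to 90.4%). MYB29 did not pass the test either (limma adjusted p = 0.367 and unadjusted p = 0.0144). The difference was -0.51 without repeat 3 and -0.33 without repeat 1.

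The authors' deposited table gives MYB28 a fold of 0.787 with a paired false discovery rate of 0.0486 and an unpaired rate of 0.350. In the authors' deposited table MYB29 has a fold of 0.730 and a paired rate of 0.0568. MYB28 is 1 of the 8 with a paired rate under 0.05 in the authors' deposited table, where 3.05% of the tested probe sets are under that rate, 1.64% with a fold below 1. Its rate lies close to the threshold, and the paired limma fit does not call it.

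Of the side-chain enzymes, BCAT4 is the aminotransferase that starts methionine chain elongation. Its intensities were 4718, 7127 and 5409 on saliva arrays 1, 2 and 3, against 5858, 6261 and 5457 on the control arrays. The saliva arrays spanned both the lowest and the highest value of the 6. The mean difference was -0.046 ± 0.25 (SD, n = 3 pairs), or 96.9% of control (95% interval 77.1% to 121.6%, limma adjusted p = 0.949).

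MAM1, methylthioalkylmalate synthase, sets the length of the side chain together with related enzymes. It was at 9329.8, 12210.4 and 9927 on saliva arrays 1, 2 and 3, against 11053, 10604 and 9024 on control arrays 1, 2 and 3. Pair 1 was below 0, at -0.24, and pairs 2 and 3 were above 0, at 0.20 and 0.14. The mean was 0.032 ± 0.24 (SD, n = 3 pairs), with a 95% interval from 81.9% to 127.7% of control and a limma adjusted p of 0.979.

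Of the core enzymes, CYP79F1 and CYP79F2 are cytochromes P450 that turn chain-elongated methionine into an aldoxime, the step that commits it to glucosinolates. They are direct neighbours on chromosome 1 in the RefSeq annotation of TAIR10.1, and the shared probe set cannot tell them apart. It read 390.2, 549 and 397 on saliva arrays 1, 2 and 3, against 491, 505 and 354 on the control arrays. As with MAM1, saliva lay below control in pair 1 and above it in pairs 2 and 3. The mean difference was -0.015 ± 0.28 (SD, n = 3 pairs), with a 95% interval from 77.7% to 126.0% of control (limma adjusted p = 0.9997).

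CYP83A1 oxidises the aldoxime in the next step. Its intensities were 5095, 6012 and 4864 on saliva arrays 1, 2 and 3, against 5319, 5359 and 4609 on control arrays 1, 2 and 3. The groups overlapped, with pair differences of -0.062, 0.17 and 0.077. The mean was 0.060 ± 0.12 (SD, n = 3 pairs), or 104.3% of control (95% interval 89.0% to 122.2%, limma adjusted p = 0.850).

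SUR1, the C-S lyase that serves the indole branch as well, showed the closest pairs. It was at 1390.6, 1273 and 1165 on saliva arrays 1, 2 and 3, against 1390.7, 1265.5 and 1155 on the control arrays. Each saliva array matched its own control to within 0.013 on the log2 scale, while repeat means differed from each other by up to 0.26. The mean difference was 0.0070 ± 0.0065 (SD, n = 3 pairs). Its 95% interval ran from 87.8% to 115.0% of control, wider than the pairs alone would give because limma shares the spread across probe sets (limma adjusted p = 0.9997).

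UGT74C1 is a glucosyltransferase that acts after SUR1 and is associated with aliphatic forms. It read 604, 758 and 747 on saliva arrays 1, 2 and 3, against 953, 930.2 and 829 on control arrays 1, 2 and 3. The groups did not overlap, unlike those of the other enzymes here. Pair differences were -0.66, -0.29 and -0.15, with a mean of -0.37 ± 0.26 (SD, n = 3 pairs). This is 77.5% of control, with a 95% interval from 61.4% to 97.9%, and it did not pass the test (limma adjusted p = 0.424 and unadjusted p = 0.0383). The size leans on repeat 1, since it was -0.22 without repeat 1 and -0.48 without repeat 3. In the authors' deposited table the fold is 0.778 and the paired rate 0.100.

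**Figure D2:**
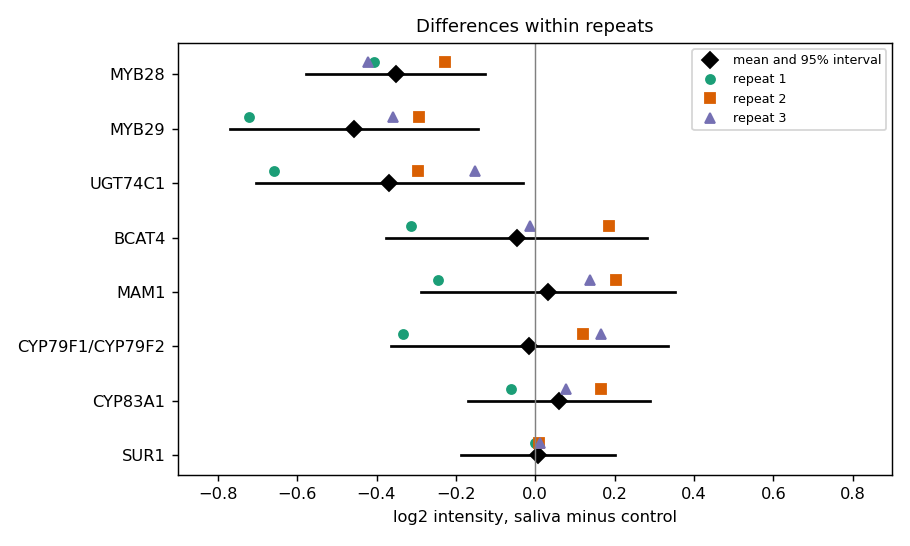
Log2 intensity, saliva minus control, of each probe set. Coloured symbols are the 3 repeats, and black diamonds with bars are means with 95% intervals from the paired limma fit, not corrected for the number of probe sets. The bars of MYB28, MYB29 and UGT74C1 lie below 0, and those of the other 5 cross it.

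Groups that do not overlap were 3 of the 8 in the lower direction, where 8.58% of all probe sets had all saliva arrays below all control arrays, and 0 of the 8 in the higher direction, where 7.66% did. Likewise 3 of the 8 were lower in all 3 pairs, where 15.6% of all probe sets were, and 0 of the 8 were higher in all 3 pairs, where 16.7% were. The median difference of the 8 was -0.031, that of the 6 enzyme probe sets -0.0042, and that of the 2 regulators -0.40. Over all probe sets the median was -0.00056, with the 5th percentile at -0.34 and the 95th at 0.38. Of all probe sets, 2.09% had a lower difference than MYB29, 4.0% a lower one than UGT74C1 and 4.44% a lower one than MYB28. The other 5 lay between 35.6% (BCAT4) and 65.7% (CYP83A1).

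**Figure D3:**
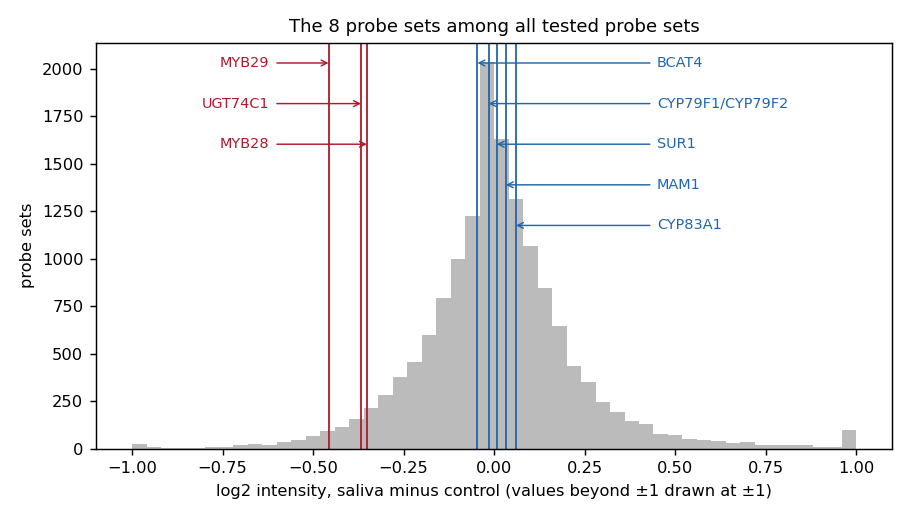
Histogram of log2 intensity, saliva minus control, over the 15177 tested probe sets (vertical axis, number of probe sets), with values beyond the axis limits drawn in the end bins. Red lines mark MYB29, UGT74C1 and MYB28 in the lower tail, and blue lines mark the other 5, near the centre.

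The values within each repeat describe the same 6 arrays from which this split was read, so they add no separate support for it. In pair 1 the 5 enzyme probe sets other than UGT74C1 ranged from -0.33 to -0.000083 with a median of -0.24. In pair 2 they ranged from 0.0084 to 0.20, all 5 above 0, and in pair 3 from -0.013 to 0.17, 4 of the 5 above 0. MYB28, MYB29 and UGT74C1 took the 3 lowest places among the 8 in each of the 3 pairs. MYB29 lay below CYP79F1 and CYP79F2 by differences of -0.39, -0.41 and -0.52 in pairs 1, 2 and 3, and below MAM1 by -0.48, -0.50 and -0.50. MYB28 minus CYP79F1 and CYP79F2 was -0.073, -0.35 and -0.59, so that gap was narrow in pair 1. Each such contrast sets the saliva minus control difference of 1 probe set against that of another in the same pair. It does not show which gene stayed level, and these contrasts were not tested.

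Over the 6 arrays 2 groups of profiles could be seen. BCAT4, MAM1, CYP79F1 and CYP79F2, and CYP83A1 had Pearson correlations with each other between 0.75 and 0.96, the highest between MAM1 and the CYP79F probe set. Each of these 4 was highest on the saliva 2 array. MYB28, MYB29 and UGT74C1 had correlations of 0.85 to 0.96 with each other, and MYB29 was closest to UGT74C1. Between the regulators and the 4 enzymes the correlations were from 0.14 (CYP83A1 with MYB28, and CYP83A1 with MYB29) to 0.61 (BCAT4 with MYB28). SUR1 followed neither group, with correlations from -0.22 (MYB28) to 0.47 (CYP83A1). These are descriptions over 6 arrays that share treatment and repeat. MYB28, MYB29 and UGT74C1 were grouped by their treatment difference on the same arrays, so their correlations add no separate support for the split.

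**Figure D4:**
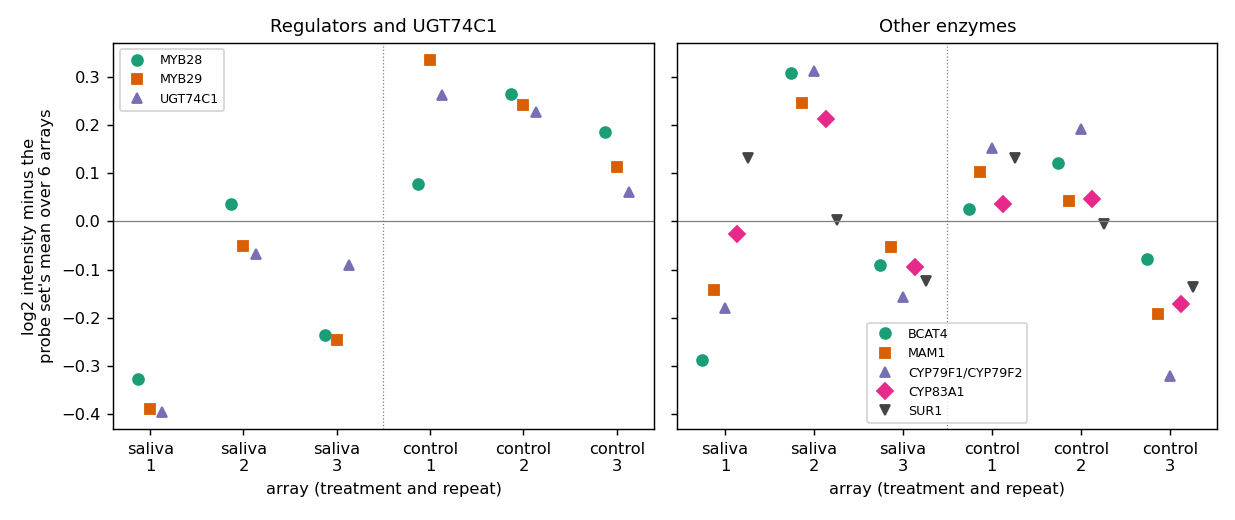
Log2 intensity of each probe set minus its own mean over the 6 arrays (vertical axis), for saliva arrays 1 to 3 and then control arrays 1 to 3. In the left panel the control points lie above the saliva points of the same gene, and in the right panel BCAT4, MAM1, the CYP79F probe set and CYP83A1 peak together on the saliva 2 array.

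The range of repeat means over both treatments exceeded the size of the mean treatment difference for the 5 enzyme probe sets besides UGT74C1. A range cannot fall below 0, and those differences were near 0, so this comparison does not test for a repeat effect. The means of the CYP79F probe set in repeats 1, 2 and 3 were 8.77, 9.04 and 8.55 on the log2 scale, a range of 0.49. The range was 0.35 for BCAT4, between 0.26 and 0.27 for MAM1, CYP83A1, SUR1 and MYB28, and 0.15 and 0.16 for UGT74C1 and MYB29. The median range was 0.26 for the 8 and 0.17 over all probe sets. In the limma F-test of the repeat term 0 of the 8 passed (lowest adjusted p = 0.931), where 0% of all probe sets did. At an unadjusted p under 0.05 in that limma F-test there were 0 of the 8, where 4.92% of all probe sets were.

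By likeness to the mean profile of the 6 enzyme probe sets over the 6 arrays, the closest named probe sets were AT2G35840 (Pearson r = 0.991), psaI, a plastid-encoded photosystem I subunit (0.984), AT4G31450 (0.975), CUL4, a cullin of ubiquitin ligases (0.968), and AT5G25210 (0.968). That mean mixes unlike profiles, since UGT74C1 correlated with CYP83A1 at 0.087 and SUR1 with BCAT4 at -0.10. Closest to MYB28 were AT2G41770 (0.992), AT3G23700 (0.986) and FUG1, a chloroplast translation initiation factor (0.981). Closest to MYB29 were AT4G34265 (0.983), AT4G02530 (0.974) and NDC1, a chloroplast NAD(P)H dehydrogenase (0.973). Among 10133 probe sets with a mean log2 value of at least 6, 47 had r above 0.9 with the enzyme profile, and among 10140 there were 81 with MYB28 and 115 with MYB29, and these counts were not tested.

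The rest of the pathway and its surroundings were read from 8 lists with 70 loci, 61 of them outside the 8 probe sets. A named probe set was available for 9 of the 61, and 0 of the 9 passed the limma test in either direction, with 2 of the 9 at an unadjusted p under 0.05 in limma, where 11% of all probe sets were. Their median difference was -0.047. Lower in all 3 pairs were 2 of the 9, the same 2 as by p, where 15.6% of all probe sets were. Higher in all 3 pairs was 1 of the 9, where 16.7% of all probe sets were. The lists for glucosinolate breakdown (9 loci) and for the indole branch (12 loci) had no gene with such a probe set and are not described.

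SDI2 (AT1G04770), a sulfur-deficiency-induced protein that, like SDI1, lowers glucosinolate production, had the lowest difference of these 9. Its intensities were 338, 303 and 417 on saliva arrays 1, 2 and 3, against 485, 479.9 and 556 on the control arrays, without overlap. Pair differences were -0.52, -0.66 and -0.42, with a mean of -0.53 ± 0.12 (SD, n = 3 pairs, limma adjusted p = 0.338 and unadjusted p = 0.0027). Its sign was that of MYB28 and MYB29, but 5 of these 9 were below 0, and the median over all probe sets was -0.00056.

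GSTU20 (AT1G78370), a glutathione S-transferase thought to act between CYP83A1 and SUR1, was at 3858, 4602 and 3689 on saliva arrays 1, 2 and 3, against 5030.4, 5306 and 4534 on the control arrays. The groups overlapped by 1 array, because repeat 2 after saliva exceeded repeat 3 in controls. The mean difference was -0.30 ± 0.089 (SD, n = 3 pairs, limma adjusted p = 0.385 and unadjusted p = 0.0183).

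MYC3, a partner of the MYB factors in activating glucosinolate genes, had 0.19 ± 0.079 and was higher in all 3 pairs (limma adjusted p = 0.471), and the related MYC4 had -0.047 ± 0.11. UGT74B1, the main glucosyltransferase of the core pathway, had -0.068 ± 0.18 with 2 of its 3 pairs just above 0. ATPS3, an ATP sulfurylase of sulfate assimilation, had 0.080 ± 0.18. The transporters GTR1 and GTR2, which import glucosinolates into phloem, had -0.095 ± 0.58 and 0.014 ± 0.42, and the pairs of each went both ways. AOP3, a side-chain modifying dioxygenase, was near the lowest intensities, at 8.48, 8.91 and 18.7 on saliva arrays 1, 2 and 3, against 8.74, 8.54 and 8.49 on the control arrays. Its mean of 0.39 ± 0.66 rests on the saliva 3 array (SD over 3 pairs for each gene named here).

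**Figure D5:**
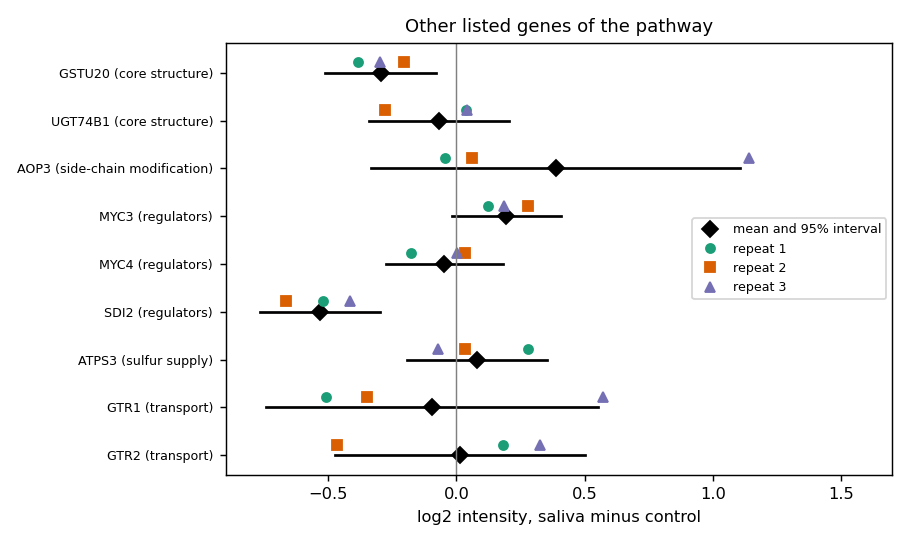
Log2 intensity, saliva minus control, of the 9 other listed genes with a named probe set, with their list in parentheses. Coloured symbols are the 3 repeats, and black diamonds with bars are means with 95% intervals from the paired limma fit. The bars of SDI2 and GSTU20 lie below 0, and those of the other 7 cross it.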

How the data were processed

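The deposited array values are linear normalized intensities. The submitters' processing notes name GCRMA, GCOS and limma, without a version or a role. The authors also deposited a fold change (a ratio) and paired and unpaired false discovery rates (adjusted p-values), per the file headers. The 2 deposited tables differed in 0 cells of array values, and 0 columns of per-sample values were left unused. The table holds 15236 probe sets, and leaving out 59 control probe sets gave 15177 to test.

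Log2 values without a pseudocount were analysed in R 4.3.3 by lmFit and eBayes of limma 3.58.1, taking the repeat as a block because the labels' protocols describe shared pots and a paired comparison. The Benjamini-Hochberg adjustment covered all 15177 tested probe sets, and calls were made at an adjusted p under 0.05. Deviations from the group mean correlated within pairs 1, 2 and 3 at -0.12, 0.15 and 0.10 across probe sets. A limma F-test of the repeat term was read from the same fit. The fit was tested on simulated data. The number of arrays limits the precision.

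Probe sets with 1 gene in the probe annotation (8330) were named, 8298 of them through RefSeq. A further 334 had several genes and 6513 had none. Where probe sets shared a gene, the brightest stood for it. Named genes were the 8 probe sets, listed genes with a named probe set, and the closest profiles among genes with a mean log2 value of at least 6 (5 for the enzymes, 3 for each regulator). The 8 probe sets and the lists were chosen by role, with earlier results of these data known. No genome build is given for the arrays in the sources used here, so no coordinates are printed.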

Additional observations from a re-analysis of the deposited data

How the results depend on the processing

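The counts of called probe sets in each direction, of called probe sets among the 8, and of called genes among the other 9 listed stayed at 0 under each of 11 alternatives listed beforehand (no replicate block, array weights, each repeat left out, median centring, quantile normalization, a mean log2 floor of 4, an intensity trend in eBayes, adjusted p under 0.1 in the paired fit, log2(value + 16)). They also stayed at 0 under the 2 chosen after seeing the data (array batch from the raw file names as a block, estimated within-repeat correlation). In the limma fit without the block (no replicate block: 0 called), 1760 probe sets and 3 of the 8 had an unadjusted p under 0.05. The count of 3 was 1 without replicate 1, 2 without replicate 2 and 3 in each other fit. Apart from the fits with and without the block, the share of all probe sets is not given beside these counts. The lowest adjusted p of the table was 0.078 without the block and 0.091 with the estimated correlation, where 2 probe sets, none of them among the 8, had an adjusted p under 0.1. The count of repeat effects among the 8 stayed at 0 in the 6 alternatives run for it. Over the alternatives MYB28 ranged from -0.41 to -0.30 (adjusted p 0.214 to 0.789), MYB29 from -0.54 to -0.33 (0.219 to 0.789) and UGT74C1 from -0.48 to -0.22 (0.239 to 0.820). Without replicate 1, which is also the value within the larger batch of raw file names, these 3 had -0.32, -0.33 and -0.22; pair 1 alone makes up the other batch and allows no test. CYP83A1 kept its sign, from 0.0077 to 0.12. Differences near 0 turned sign: BCAT4 to 0.059 and CYP79F1 and CYP79F2 to 0.051 with array weights, SUR1 to -0.0084 with median centring, and with a repeat left out BCAT4 ranged from -0.16 to 0.087, CYP79F1 and CYP79F2 from -0.11 to 0.14 and MAM1 from -0.053 to 0.17 (-0.021 without replicate 3); the cause was not tested. Array weights were 0.622, 2.22 and 0.725 for pairs 1, 2 and 3. The second deposited table was not run, since its values are identical.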
